A study of Mus musculus with 8 samples.

Results

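The long noncoding RNAs and noncoding snoRNA host genes of mouse oocytes at nuclear envelope breakdown (NEBD) were followed through polysomal and non-polysomal RNA. The set held 10 symbols, Malat1, Neat1, Gas5, Snhg1, Snhg3, Snhg5, Snhg6, Snhg8, Snhg12 and Miat, and a member was any row of the all-gene table whose symbol was one of them. Of the 10 symbols, 5 were found among the 25574 rows, namely Malat1, Neat1, Gas5, Snhg3 and Snhg12. No expression value of Snhg1, Snhg5, Snhg6, Snhg8 or Miat was analysed here. Of the 5 members listed, 4 exceeded a mean of 0.1 FPKM (fragments per kilobase of transcript, scaled to the mapped reads of the library) in at least one dataset, and Neat1 was listed at 0 in every library.

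Fully grown oocytes at the germinal vesicle stage came from CD1 mice aged 8 weeks, taken 46 h after 5 IU of pregnant mare serum gonadotropin, and were held back by 100 µM IBMX (an inhibitor of meiotic resumption) during isolation. They were freed of surrounding cells, cultured for 180 min without IBMX and treated with 0.1 mg/ml cycloheximide, which arrests ribosomes on mRNA, for 10 min. Lysates of 200 oocytes each were sedimented through sucrose and divided into 10 fractions, of which, leaving out the top of the gradient, the lighter ones were pooled as the non-polysomal dataset (NP, 4 libraries) and the heavier ones as the polysomal dataset (P, 4 libraries). All 8 libraries shared strain, stage and drug treatment, and they differed by design in the part of the gradient and in the biological replicate. After depletion of rRNA, the remaining RNA was reverse transcribed with random and oligo dT primers and its cDNA amplified, so RNAs with and without a poly(A) tail could enter.

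A long noncoding RNA (lncRNA) has no long open reading frame, and many act in the nucleus. Malat1 resides in nuclear speckles, the stores of splicing factors, and Neat1 is the scaffold of paraspeckles. The snoRNA host genes work differently: their introns carry small nucleolar RNAs, which guide the chemical modification of rRNA, while the spliced exons reach the cytoplasm, where ribosomes engage short reading frames and the RNA is degraded by nonsense-mediated decay. Several hosts, Gas5 among them, share with ribosomal protein mRNAs a pyrimidine tract at the start of the transcript (5′TOP), through which translation is regulated. At NEBD the nucleus opens and its contents mix with the cytoplasm, and the oocyte does not transcribe.

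The start sites of the listed hosts and of Malat1 are shown because the pyrimidine tract is the feature that joins some of these genes to the ribosomal protein mRNAs. Each window holds 15 bases before and 15 from the annotated start, on the strand of the gene, from RefSeq on GRCm38.p6. Capitals mark the longest unbroken run of C or T inside the stretch from 5 bases before to 10 bases after the start, where a run is counted only as far as it lies inside.
Gas5, start site 1, chr1:161034586-161034615: agggggcgggCCCgcgagctcgacagcccg
Gas5, start site 2, chr1:161035151-161035180: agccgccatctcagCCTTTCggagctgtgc
Snhg12, chr4:132308663-132308692: ggccgttctcagTCCTTTCTCgcttcatcc
Snhg3, chr4:132353672-132353701: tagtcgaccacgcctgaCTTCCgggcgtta
Malat1, chr19:5802658-5802687: ctccgggctctgcgtcaggcaTTCaggcag
Rpl12, a ribosomal protein host, chr2:32961697-32961726: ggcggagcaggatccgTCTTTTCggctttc
The run reached 9 bases in Snhg12, 6 at the second start site of Gas5 and 5 in Snhg3, against 3 in Malat1. A run of at least 5 bases inside that stretch was the limit. It was met by 6 of the 9 start sites found for 8 of the 10 symbols, and by 8657 of all 32851 start sites (26.4%). Start sites were found for 23 of the 34 protein-coding snoRNA hosts, and 6 of these 23 met it (26.1%). The limit thus did not set the protein-coding hosts apart from start sites at large. It depends on where the start is annotated, since runs outside the stretch do not count. At the start site of Rpl4 the counted run was 2 bases, and a longer run lies mostly before the stretch. These are letters in a window and show neither a tract in use nor a start site in use in oocytes.

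The annotated exons decide which reads can count for a host. Gas5 (chr1:161034422-161038539, + strand) contained 9 genes annotated as snoRNAs in GENCODE, and all 9 lay within its merged exons, because isoforms that retain introns are annotated. Snhg12 (chr4:132308623-132311024, + strand) contained 4, also all within merged exons. Snhg3 (chr4:132348014-132353686, - strand) contained Snora73a and Snora73b, neither of them within an exon. One C/D box snoRNA of each of the first pair of hosts is given, with the letters of the C box (TGATGA) and D box (CTGA) in capitals, both found by an exact search.
Snord47, in Gas5, chr1:161038082-161038158: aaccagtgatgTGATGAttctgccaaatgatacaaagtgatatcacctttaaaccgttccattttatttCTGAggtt
Snord99, in Snhg12, chr4:132310691-132310764: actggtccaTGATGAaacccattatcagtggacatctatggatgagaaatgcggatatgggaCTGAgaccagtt
At 77 and 74 bases such RNAs are short for this library preparation. Of 1483 symbols annotated as snoRNAs in GENCODE, among them the 15 inside the listed hosts, 0 had a row in the table, so no snoRNA had a value of its own. Reads from a snoRNA within the exons of Gas5 or Snhg12 cannot be told apart from reads of the host.

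Reads behind a value were few. The library totals to which the FPKM values were scaled, worked out from the steps between low values, were 1299184 to 7594625 reads in NP and 2677090 to 4699070 in P. In the deepest library, NP replicate 4, 1 read was worth 0.0189 FPKM for Malat1, and in the shallowest, NP replicate 2, 0.11 FPKM. All statements on reads cover counting error only, since reads amplified from one cDNA are not independent molecules. The oocyte markers were abundant, with means up to 3900 FPKM and all 10 above 0.1 FPKM in 7 libraries and 9 in P replicate 2. Of 12 markers of cumulus and granulosa cells, 2 to 5 exceeded 0.1 FPKM per library, with sums of 15.3 to 94.4 FPKM in NP and 2.38 to 64.0 in P, and Cyp19a1, Nr5a2 and Kitl were the highest of them. Foxl2, Amhr2, Fst, Has2 and Ptx3 were listed at 0 in all 8 libraries.

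Malat1 was the member present in most libraries, above 0 in 7 of 8, at a low level and with no measurable difference between the parts of the gradient. In NP it stood at 0.224, 0.220, 0.807 and 0.660 FPKM in replicates 1 to 4, from 5, 2, 41 and 35 reads. In P it stood at 0, 0.179, 0.322 and 1.98 FPKM, from 0, 4, 10 and 37 reads. The lowest and the highest of the 8 values were both polysomal, so the groups overlapped completely. The means were 0.478 ± 0.301 FPKM in NP and 0.620 ± 0.915 in P (SD, n = 4 each), a P/NP ratio of 1.297 that became 0.349 without P replicate 4. On the log2(FPKM + 1) scale the difference, P minus NP, was 0.01 (SE 0.41, 95% interval -0.867 to 0.893), with an adjusted p of 0.991 from limma. Summed over libraries, and not corrected for depth, 83 reads fell in NP and 51 in P. Most of those in NP came from replicates 3 and 4, the deepest libraries.

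Malat1 occupies a single exon of 6983 bases at chr19:5795690-5802672 on the - strand. Gm20417, annotated inside it on the opposite strand, was listed at 0.647 FPKM in NP replicate 3, 2.17 in NP replicate 4 and 0.734 in P replicate 2, and at 0 in the others. The Nextera preparation does not mark strand, so reads in the shared stretch cannot be told apart. Among genes above 0 in the same library, Malat1 ranked between percentiles 2.77 and 29.7. In such bulk samples, less RNA per oocyte and fewer oocytes with the RNA cannot be told apart.

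The genes whose levels followed Malat1 most closely across the 8 libraries, among 10622 with a mean above 1 FPKM, were Mdc1, a mediator of the DNA damage response (Pearson r = 0.976 on log2 values), the mitotic kinase gene Nek9 (0.961) and Gm20536 (0.96). All 3 had their highest value in P replicate 4, at 22.2, 24.7 and 14.7 FPKM, as Malat1 did. These coefficients describe 8 points that share 1 extreme library.

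Neat1, the paraspeckle scaffold, lies 22036 bases from Malat1 on the same strand (chr19:5824708-5845478) and was listed at 0 in all 8 libraries. Its exon of 20771 bases is the longest of the set, so few reads would have been needed for a small value. A count of 0 allows up to 3 reads, which is 0.019 FPKM in NP replicate 4 and 0.111 in NP replicate 2, with the other libraries between them. Neat1 was thus not detectable above 0.111 FPKM in any library, and no comparison between P and NP was possible.

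Gas5, a host whose name records its accumulation in growth-arrested cells, was carried by one library on each side. The NP values were 0.0833, 0, 0 and 0.665 FPKM, from 1, 0, 0 and 19 reads. The P values were 0, 0, 0 and 0.695 FPKM, from 0, 0, 0 and 7 reads. The 2 high values belonged to replicate 4 of each dataset and were nearly the same size. The means were 0.187 ± 0.321 FPKM in NP and 0.174 ± 0.348 in P (SD, n = 4 each), a P/NP ratio of 0.929. The log2 difference was -0.02 (SE 0.28, 95% interval -0.617 to 0.572, adjusted p = 0.974, limma). Without NP replicate 4 the ratio became 6.26, and without P replicate 4 the polysomal side was listed at 0, so no direction can be given.

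The same pair of libraries were the ones in which Inha, a granulosa cell marker, was above 0, at 0.179 FPKM in NP replicate 4 and 0.759 in P replicate 4. The more abundant markers differed between the same libraries, with Cyp19a1 at 75.2 and 0.629 FPKM, Nr5a2 at 16.2 and 0.487 and Kitl at 2.76 and 0. The sum of the 12 markers was the highest of the 8 libraries in NP replicate 4 (94.4 FPKM) and the lowest in P replicate 4 (2.38). Without Cyp19a1 and Nr5a2 the sums were 2.94 and 1.26 FPKM, with 10.3 in P replicate 3. The number of markers above 0.1 FPKM was highest in these libraries, 4 in NP replicate 4 and 5 in P replicate 4. Reads behind the marker values were not worked out. Over 1527 exon bases, the length of the gene Gm17300, 1 read was worth 0.0862 FPKM in NP replicate 4 and 0.245 in P replicate 4. For a gene of that length 1 read passes 0.1 FPKM in P replicate 4, so these counts also depend on depth. Amh (0.224 FPKM) and Hsd17b1 (0.279) were above 0 in P replicate 4 and at 0 in NP replicate 4. Foxl2, Amhr2, Fshr, Fst, Has2 and Ptx3 were at 0 in both, where a count of 0 allows up to 3 reads. The part of granulosa cells in the Gas5 values was not tested. The gene Zbtb37 overlaps the span of Gas5 on the opposite strand without sharing exon bases and stood at 4.98 FPKM, its lowest value, in NP replicate 4 and at 15.4 in P replicate 4.

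Snhg3, host of the snoRNAs of the U17 family, was seen once. It was listed at 0 in the 4 NP libraries and at 0.863, 0, 0 and 0 FPKM in P, where the value of replicate 1 rested on 4 reads over 986 exon bases. The 3 reads that a count of 0 allows correspond to 0.401 to 2.34 FPKM in the NP libraries, and in NP replicates 1 and 2 (0.953 and 2.34) that limit was above the value of P replicate 1. The P mean was 0.216 ± 0.432 FPKM (SD, n = 4), with a log2 difference of 0.22 (SE 0.25, 95% interval -0.302 to 0.751, adjusted p = 0.717, limma). Snhg3 shares 705 of its exon bases with the antisense gene Gm17300, which also had 4 reads in P replicate 1 (0.557 FPKM) and none in the other 7 libraries, and 135 bases with Rcc1 on its own strand. Rcc1, which encodes the nucleotide exchange factor of Ran, was above 0 in all 8 libraries, with 542 reads in NP and 263 in P, not corrected for depth. Reads of the 3 genes cannot be told apart in the shared stretches.

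Snhg12 was likewise seen in a single library, on the other side of the gradient. It was listed at 0, 0, 3.89 and 0 FPKM in NP replicates 1 to 4 and at 0 in the 4 P libraries. That value, in NP replicate 3, was the highest of any member in any library and stood at percentile 42.3 of the genes above 0 there. The NP mean was 0.972 ± 1.94 FPKM (SD, n = 4), with a log2 difference of -0.57 (SE 0.45, 95% interval -1.53 to 0.387, adjusted p = 0.65, limma). Its row starts at base 132308678, as RefSeq places the first base, and not at the GENCODE start, and with the GENCODE exon length its value was not a whole number of reads, so no read count is given.

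A value in a single library was common. Of the rows with any value above 0, 1841 (11.8%) were above 0 in exactly 1 library, 721 of them in NP replicate 3, and 164 of the 1841 reached or exceeded the value of Snhg12. Gm12869, Ppcs, an enzyme gene of coenzyme A synthesis, and Tcp11l2 were, like Snhg12, above 0 only in NP replicate 3. Any row with that pattern correlates with Snhg12 at r = 1.0, so these genes are examples of it and no closer than the rest.

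**Figure D1:**
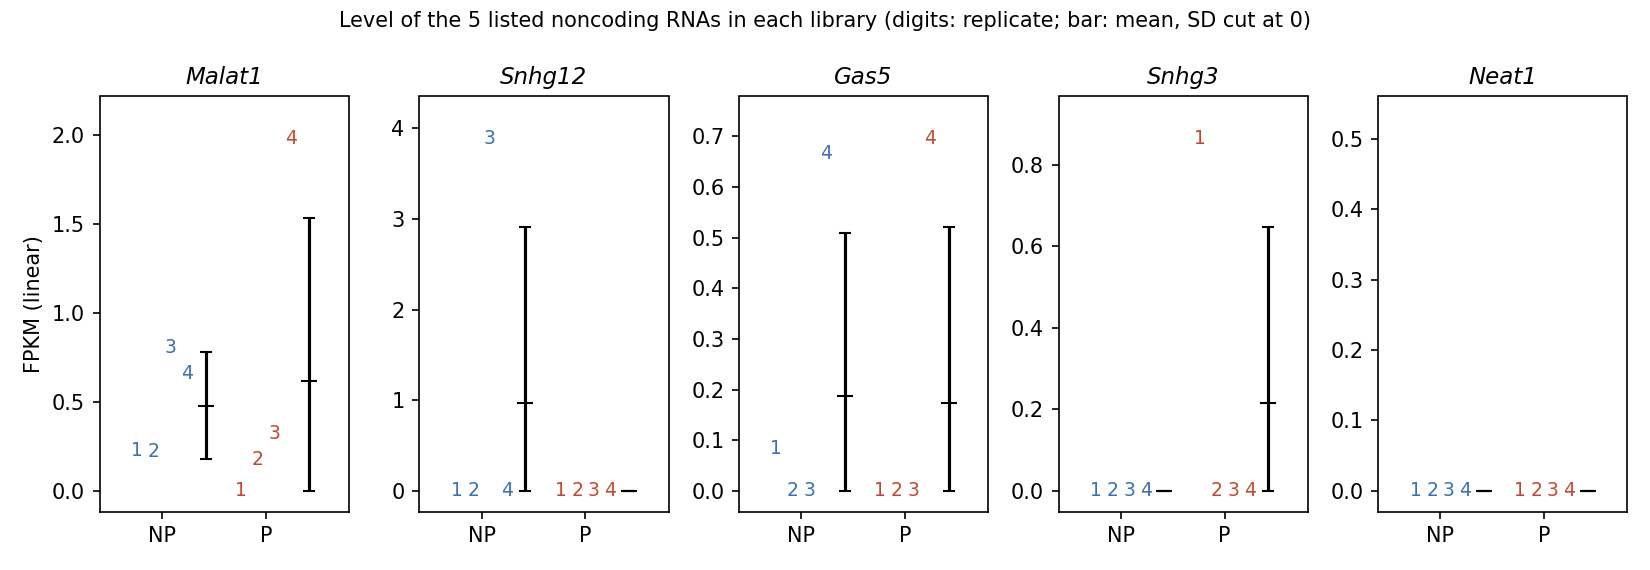
FPKM (linear axis, a separate scale per gene) of the 5 listed noncoding RNAs, with a digit for each of the 4 NP libraries (blue) and 4 P libraries (red) giving its replicate number; black bars give the mean and the SD, cut at 0 below. Malat1 has values in 7 of 8 libraries with the highest, 1.98, in P replicate 4, Gas5 is high in replicate 4 of both datasets, Snhg12 and Snhg3 rest on 1 library each, and Neat1 is at 0 throughout.

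In order of the mean over 8 libraries, Malat1 (0.549 FPKM) was followed by Snhg12 (0.486), Gas5 (0.180), Snhg3 (0.108) and Neat1 (0). Within NP the order was Snhg12, Malat1, Gas5 and then Snhg3 and Neat1, and within P it was Malat1, Snhg3, Gas5 and then Snhg12 and Neat1. In both orders each neighbouring pair differed by less than the larger of their SDs, so none of the steps exceeded the spread. In each dataset 3 members exceeded a mean of 0.1 FPKM, and none exceeded 1. Only Malat1 exceeded 0.1 FPKM in at least 3 of the 4 libraries of either dataset.

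Most lncRNA rows were lower still. Of 1190 long noncoding rows that overlap no other row, 908 (76.3%) were listed at 0 in all 8 libraries. The filter of a mean above 0.1 FPKM was passed by 251 of the 1190 (21.1%). With overlapping rows included, 810 of 2881 long noncoding rows (28.1%) and 11736 of 19122 protein-coding rows (61.4%) passed it. Set among those 1190 rows, although Malat1, Gas5 and Snhg3 themselves overlap other genes, the mean level of Malat1 fell at percentile 88.1, Snhg12 at 87.4, Gas5 at 82.8 and Snhg3 at 81.1. Neat1 fell at percentile 0. With 76.3% of those rows at 0, any value above 0 stands above that share. The median level of the 251 rows that passed was 0.841 FPKM, and the means of all 5 members lay below it.

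The comparison of P with NP asked whether any of these RNAs travelled preferentially with polysomes. It was a limma fit over 14292 genes, with 0 of the 4 members tested called at an adjusted p under 0.1, in a background of 0.021% of all genes called (3 genes, all NP higher, and 1 gene with the replicate number as a block). At an unadjusted p under 0.05, 0 of 4 members stood out, against 9.95% of all genes (0.476% P higher, 9.47% NP higher). With every library centred on its median, 2 of the 4, Gas5 and Snhg3, had P higher at that limit, against 2719 of the 14292 genes (19%). Centring adds the same amount to the difference of every gene, also where most values are 0. Gas5 was above 0 in 3 libraries and Snhg3 in 1, so these 2 results describe the centring and not the members. No member had NP and P values that did not overlap, a state found in 0.357% of genes with P higher and 5.92% with NP higher. With 4 members, counts of 0 cannot be told apart from these background shares. Snhg3 passed the filter through its P mean alone and Snhg12 through its NP mean alone, so their tests are no evidence of a direction. The median log2 difference of the members was -0.0049 beside -0.39 over all genes tested. It is the midpoint of Malat1 and Gas5 and is the same without Snhg3 and Snhg12. Each library was scaled to its own total, and P minus NP therefore compares shares of a library and not amounts of RNA.

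The other noncoding snoRNA hosts had a median level of 0.0376 FPKM over the listed rows, against 0.180 for the members, and several rested on 1 library. Of 14 symbols, 9 were listed, 7 of them under an older symbol, and 4 passed the filter. Snhg20 (listed as 2810008D09Rik) was at 40.1 FPKM in P replicate 3 and at 0 in the other 7 libraries (log2 difference 1.34, adjusted p = 0.637, limma). Snhg17 (9430008C03Rik) was at 2.54 FPKM in NP replicate 3, 2.25 in P replicate 4 and 0.0567 in NP replicate 4, and at 0 elsewhere. Zfas1 (1500012F01Rik), host of C/D box snoRNAs, was above 0 in all 4 NP libraries, from 0.0723 to 0.810 FPKM, and in P only in replicate 3, at 2.96. Snhg15 (Gm11974) was at 0.872 FPKM in NP replicate 4 and 0.689 in P replicate 2 and at 0 elsewhere. The call count was 0 in either direction, also at an unadjusted p under 0.05, and the list's median log2 difference was -0.0049.

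Other lncRNAs gave 15 listed rows of 30 symbols, with 1 row reached under each of its current and older symbols, and 6 passed the filter. Tug1, a lncRNA found in nucleus and cytoplasm, was the one above 0 in all 8 libraries, at 8.17, 1.38, 6.26 and 0.987 FPKM in NP and 3.64, 1.92, 7.89 and 3.19 in P. Its means, 4.20 ± 3.57 in NP and 4.16 ± 2.59 in P (SD, n = 4 each), were nearly equal, and its log2 difference was 0.17 (SE 0.89, adjusted p = 0.94, limma). Meg3, the maternally expressed imprinted lncRNA, was at 1.35, 0.681, 0 and 1.86 FPKM in NP and at 0, 0.293, 0 and 0 in P. It had 349 reads in NP and 17 in P, not corrected for depth. Its groups overlapped and the log2 difference of -0.78 (SE 0.38, 95% interval -1.59 to 0.0301) had an unadjusted p of 0.0579 and an adjusted p of 0.513 (limma). Mir22hg (2210403K04Rik) reached 18.0 FPKM in P replicate 3 and 2.78 in NP replicate 3. Crnde (4933436C20Rik) was above 0 in NP replicates 1 and 3 alone, at 0.156 and 0.546 FPKM. No gene of the list had an unadjusted p under 0.05, and the median log2 difference of the 6 was 0.15, which turned to -0.21 without P replicate 3 and to -0.08 with a pseudocount of 0.1.

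**Figure D2:**
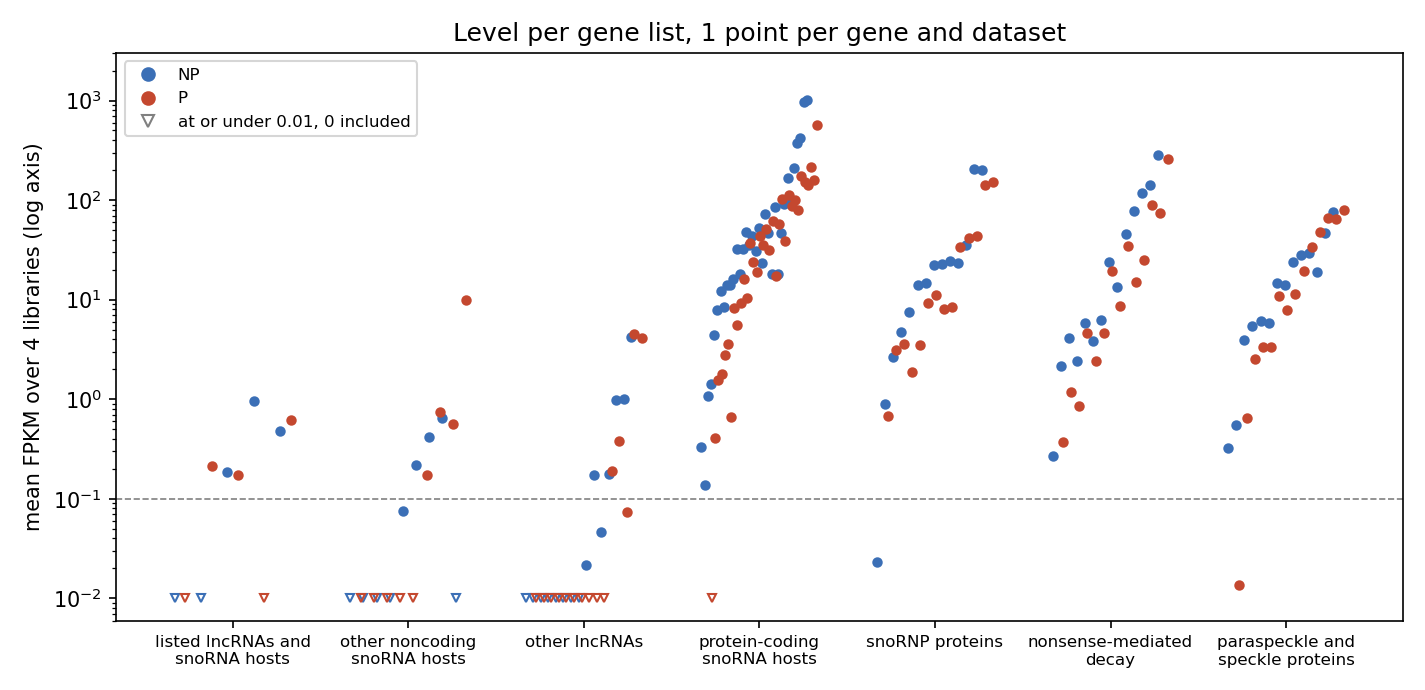
Mean FPKM over 4 libraries (log axis) of each listed gene, NP in blue and P in red, grouped by gene list; open triangles mark means at or under 0.01, 0 included, and the dashed line the filter of 0.1 FPKM. The noncoding lists lie mostly at or under 1 FPKM, while the protein-coding hosts have a median of 40.6 FPKM.

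Protein-coding genes that carry snoRNAs in their introns were abundant by comparison. All 34 hosts of the list passed the filter, with a median level of 40.6 FPKM and a range of 0.164 to 789 FPKM, against 0.180 for the 5 members. The highest were Eef2, the translocase of translation elongation, and the ribosomal protein genes Rps12 and Rpl4. None was called, but 1 was higher in P and 6 were higher in NP at an unadjusted p under 0.05, where the background is 0.476% and 9.47% of genes. Rpl5 had a mean of 18.0 FPKM in NP and 103 in P, with no overlap (log2 difference 2.27, SE 0.65, adjusted p = 0.394, limma). Rpl12, whose start site is given above, had 12.3 in NP and 0.663 in P, again with no overlap (-3.05, SE 0.80, adjusted p = 0.376). Of the 34 hosts, 1 had no overlap with P higher and 2 with NP higher (Rpl12 and Rpl7a), beside 0.357% and 5.92% of all genes. The list's median log2 difference was -0.55, with -0.65 over its 20 ribosomal protein hosts and -0.40 over the 14 others, and it turned to 0.41 with every library centred on its median.

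The proteins that bind snoRNAs or act on host transcripts showed no call either. Among 14 snoRNP proteins and assembly factors, with Ruvbl2, Nhp2 and Nop56 the highest, none had an unadjusted p under 0.05, and the median log2 difference was -0.54 (0.41 with median centring). Among 14 genes of nonsense-mediated decay, led by Eif4a3, Smg8 and the helicase Upf1, 1 was higher in NP at that limit, Smg9, a partner of the SMG1 kinase (log2 difference -2.67, adjusted p = 0.439, limma), and the median was -0.62 (0.34 with median centring). Among 14 paraspeckle and speckle proteins, led by Nono, Matr3 and Srsf1, the median was -0.08 (0.88 with median centring). The splicing factor gene Srsf1, not called (log2 difference 2.05, adjusted p = 0.416, limma), was the only 1 of the 14 without overlap. It had P higher, a state found in 0.357% of all genes. Nono, a core paraspeckle protein gene, averaged 77.5 FPKM over the same 8 libraries in which Neat1 was listed at 0.

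**Figure D3:**
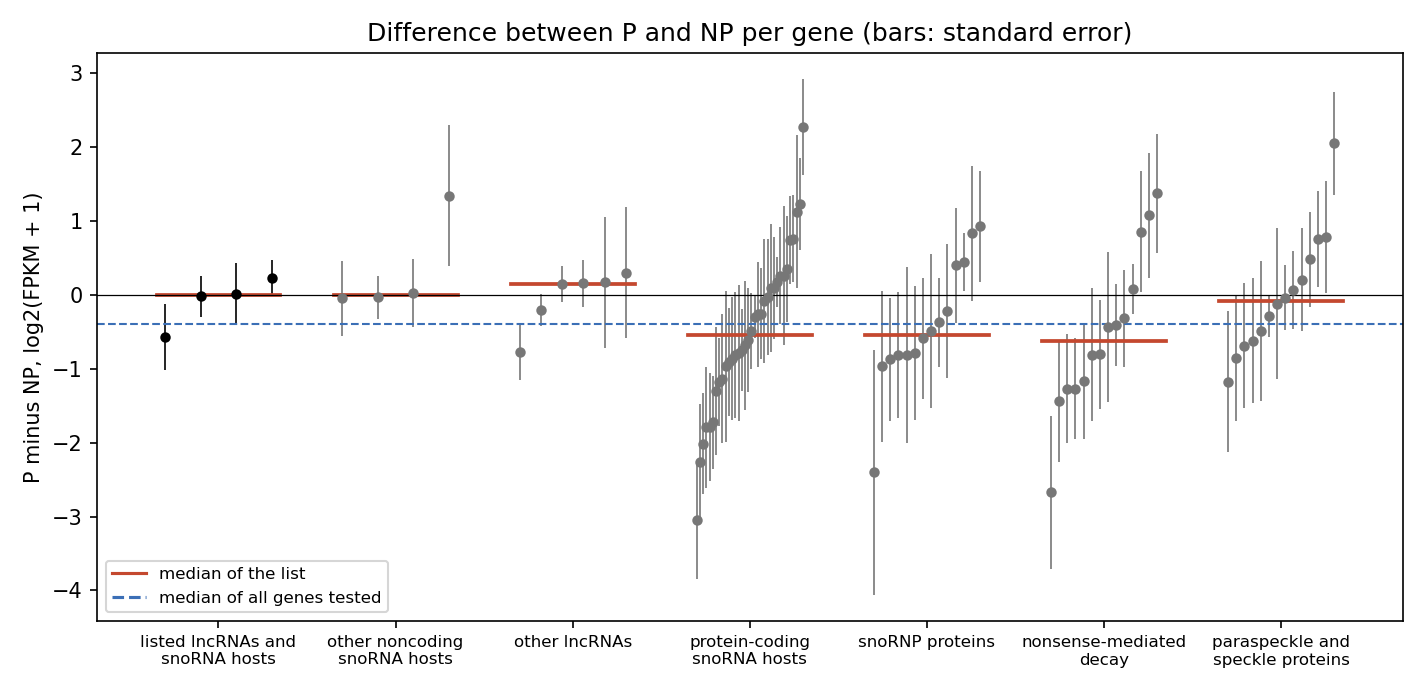
Difference P minus NP in log2(FPKM + 1) for each gene that passed the filter, with its standard error as a bar, grouped by gene list; red lines give the median of each list and the dashed line the median of all 14292 genes tested, -0.39. The 4 members (black) lie between -0.57 and 0.22, and none was called.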

How the data were processed

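Total RNA of 4 NP and 4 P pools, each from 200 oocytes, was sequenced after rRNA depletion and whole-transcriptome amplification. Per the labels and the study's methods, the authors trimmed reads with Trim Galore 0.4.1, checked them with FastQC 0.11.5, aligned them by HISAT2 2.0.5 against GRCm38 and computed the deposited FPKM values per gene in SeqMonk. Strand-aware counting was not given in the sources used here. The table's 8 single-library columns were used. Its 2 columns of the authors' means, and deposited tables of the authors' ratios and DESeq2 calls, were not.

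The 10 symbols and all gene lists were chosen with earlier results of these data known. Genes with a mean above 0.1 FPKM in NP or P (14292) were tested on log2(FPKM + 1), which understates changes of low genes, with limma 3.58.1 (R 4.3.3; moderated test with a trend, 2-sided), Benjamini-Hochberg adjustment over all 14292 and a threshold of 0.1. The fit was run on simulated data whose changed genes all lay far above the members' levels, so that run does not cover genes this low. The study describes the replicates as biological. Named from each other list were the 3 highest genes by mean FPKM and the 2 with the smallest p, besides every overlapping gene and, for the 2 highest members, the 3 best-correlated genes. Whole reads were worked out as FPKM × exon length × library total, within 0.02 reads plus 0.0003 per read, with GENCODE exon lengths. Alternatives were another pseudocount and filter, median centring, quantile normalization, a replicate block and leaving out each library.

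The study prepared 4 gradients, and each gave an NP and a P pool. That a replicate number marks 1 gradient is not stated in so many words, and the fit reported has no block. Deviations of same-numbered NP and P libraries from their group means correlated at 0.139, 0.0518, 0.251 and 0.155 over 11374 genes.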

Additional observations from a re-analysis of the deposited data

Results flagged for a closer look

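In 5 sets of 4 libraries there was a value far from the other 3, with a gap to the nearest that exceeded the 95% limit of Dixon's test. They were Malat1 in P, with 1.98 FPKM in replicate 4, Gas5 in NP, with 0.665 FPKM in replicate 4, Gas5 in P, with 0.695 FPKM in replicate 4, Snhg3 in P, with 0.863 FPKM in replicate 1, and Snhg12 in NP, with 3.89 FPKM in replicate 3. For Gas5 in P, Snhg3 and Snhg12 the other 3 libraries were at 0, so the gap was the whole range. By chance about 1 in 20 groups of normally distributed values passes this limit, but a group of 3 zeros and 1 value always does, so that rate does not apply to those 3 sets. Malat1 in P (0, 4, 10 and 37 reads) and Gas5 in NP (1, 0, 0 and 19 reads) are small counts bounded by 0. The rate therefore does not carry over to them either.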

How the results depend on the processing

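No member was called under any alternative in which one was tested (adjusted p 0.108 to 0.99), and no member remained to be tested with a filter of a mean above 1 FPKM. Over all genes, the 3 calls became 5 with a pseudocount of 0.1, 5 with a filter of 1 FPKM, 0 with no filter, 0 with median centring and 0 with quantile normalization, and 0 to 5 when single libraries were left out. The median over all genes moved from -0.39 to 0.57 under median centring and to -0.83 with a pseudocount of 0.1. Blocking on the replicate number left 1 gene called and changed no call on a member. Every NP library correlated best with the P library of its own number, except that NP replicate 2 correlated best with P replicate 1 (0.136).

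The members' median log2 difference of -0.0049 became -0.30 with a pseudocount of 0.1, 0.95 with median centring and 0.26 with quantile normalization, and lay between -0.27 (without P replicate 4) and 0.12 (without NP replicate 3) with single libraries left out. With a threshold of 1 FPKM, 0 members were counted in NP and 0 in P, and 1 in each when 0.1 FPKM was required in at least 3 libraries. Malat1 turned to -0.39 with a pseudocount of 0.1 and ranged from -0.33 to 0.20 with single libraries left out, below 0 without P replicate 4 (-0.33), NP replicate 1 or NP replicate 2 (-0.07 each). Gas5 turned to 0.94 with median centring, 0.25 with quantile normalization and ranged from -0.21 to 0.15 with single libraries left out, above 0 without NP replicate 4 (0.15) or one of P replicates 1 to 3 (0.04 each). Median centring turned Snhg12 to 0.39, Snhg15 to 0.92, Meg3 to 0.18 and Crnde to 0.75, and Snhg15 also turned to 0.13 with quantile normalization and ranged from -0.23 to 0.19 with single libraries left out. Under median centring 2 members had an unadjusted p under 0.05, against 0, and the list medians turned to 0.41 for protein-coding hosts, 0.41 for snoRNP proteins, 0.34 for nonsense-mediated decay, 0.88 for paraspeckle and speckle proteins and 0.95 for other noncoding hosts. The median of the other lncRNAs turned to -0.08 with a pseudocount of 0.1, -0.04 without NP replicate 2, -0.05 without NP replicate 4 and -0.21 without P replicate 3. Median centring adds the same amount to the P minus NP difference of every gene. The turns under it, and the 2 members with an unadjusted p under 0.05, thus reflect a single shift and are not separate results. Why the other values moved was not tested. A count of 0 allows 3 reads, which is up to 2.34 FPKM for Snhg3, 0.614 for Gas5 and 0.111 for Neat1.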
